A study of Mus musculus with 6 samples.

Results

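Prostaglandin E2 and endothelin-1 are local signals that epithelial cells of the renal collecting duct make, sense and clear. A set of 10 genes of these systems was followed in mpkCCD clone 11 cells: the cyclooxygenases Ptgs1 and Ptgs2, the prostaglandin E synthases Ptges and Ptges2, the prostaglandin E2 receptors Ptger1 and Ptger4, the degrading enzyme Hpgd, the prostaglandin transporter Slco2a1, endothelin-1 itself (Edn1) and its B-type receptor Ednrb. Every probe set that the platform annotation assigned to 1 of these symbols and to no other gene was taken, which gave 12 of 28225 probe sets and 7 of 12364 named genes. No probe set of the table analysed carried Ptgs1, Ptges or Hpgd as its only symbol, so these 3 genes were not analysed here. Whether the table holds every probe set of the array was not tested, and a gene missing from it may still be expressed. Every share of all probe sets or genes below refers to this table.

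The cells are an immortalised line of mouse cortical collecting duct, used as a single clone (clone 11), and were grown on membrane supports so that they polarized. Once their transepithelial resistance had reached at least 5 kohm per cm2, 3 samples received 0.1 nM dDAVP for 5 days and 3 samples received vehicle for 5 days. dDAVP, also called desmopressin, is a peptide made to mimic vasopressin at its V2 receptor. Total RNA of each sample was hybridised to 1 Affymetrix Mouse Genome 430 2.0 array. The labels call the samples biological replicates without saying whether they came from separate passages, and every p-value below reflects only how far these 6 samples varied.

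In the collecting duct, vasopressin raises cAMP in principal cells and thereby water permeability, and prostaglandin E2 and endothelin-1 are known to oppose that action. Cyclooxygenases convert arachidonic acid to prostaglandin H2, prostaglandin E synthases convert this to prostaglandin E2, and the transporter encoded by Slco2a1 carries it into cells for breakdown by the enzyme encoded by Hpgd. Endothelin-1 acts on the same epithelium through its B-type receptor, where it is known to inhibit sodium and water transport.

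Signals are log2 values per probe set. The dDAVP and vehicle arrays were compared with limma across all 28225 probe sets, and a probe set is said to have changed when its Benjamini-Hochberg adjusted p was below 0.05. The medians of the 6 arrays differed by at most 0.04. Aqp2, the vasopressin-regulated water channel, served as the check of treatment and averaged 10.85 ± 0.072 in dDAVP cells and 6.70 ± 0.042 in vehicle cells (SD, n = 3 each). Avpr2, the V2 receptor itself, averaged 9.25 ± 0.053 in dDAVP cells and 8.73 ± 0.072 in vehicle cells, a change of 0.52 ± 0.065 (SE, limma adjusted p = 0.0271) whose adjusted p was 0.0851 to 0.155 without any 1 array. Of 13 principal cell markers 11 were measured, and their mean ranged from 8.19 to 8.24 over dDAVP arrays and from 7.66 to 7.71 over vehicle arrays. Of these, 3 changed, namely Aqp2, Avpr2 and the sodium pump regulator Fxyd4 (0.68, limma adjusted p = 0.0116). The mean includes Aqp2, whose log2 change was 4.15, while the changes of the markers that did not pass ran from -0.075 (Gata3) to 0.26 (Scnn1g). Among these, Hsd11b2 had a mean of 10.34 and Gata3 of 9.83, while Elf5 was dim at 3.74. Prostaglandin and endothelin genes are also active in interstitial and endothelial cells of the kidney. The markers measured for these were Cdh5 of endothelium at 3.09 in dDAVP and 3.11 in vehicle cells (1 of 8 listed), and Col1a1 and Col3a1 of fibroblasts (2 of 10 listed), whose mean ranged from 3.14 to 3.25 over dDAVP arrays and from 3.10 to 3.29 over vehicle arrays. The mean of the measured leukocyte markers (5 of 9, with Ptprc at 3.21 and Csf1r at 9.36) ranged from 6.02 to 6.04 over dDAVP arrays and from 5.84 to 6.04 over vehicle arrays. That of the intercalated cell markers (3 of 7) ranged from 7.70 to 7.86 over dDAVP arrays and from 7.48 to 7.59 over vehicle arrays. No marker of these 4 other cell types changed (0, against 0.291% of all genes by their brightest probe set). The only ones at an unadjusted limma p below 0.05 were Atp6v1b1 (0.32, adjusted p = 0.153) and Atp6v0a4 (0.42, adjusted p = 0.397) of intercalated cells and Cd68 (0.2, adjusted p = 0.593) of leukocytes. Of all genes, 7.80% reached that level. The part of these cell types in the results below was not tested. As a mark of dim signal, the 10 probe sets of olfactory receptors in the table had means from 2.65 to 3.56. That these genes are silent in these cells was assumed and not tested.

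None of the 12 probe sets changed with dDAVP in limma (0 at adjusted p below 0.05, against 0.216% of all probe sets). At an unadjusted p below 0.05 there were 4 of 12, namely the brighter Ptgs2 probe set, Ptger1, 1 Slco2a1 probe set and 1 Ednrb probe set, where 7.98% of all probe sets reached that level. The first 3 had positive changes, where 4.85% of all probe sets did so at that level, and the Ednrb probe set a negative one, where 3.13% did. The dDAVP and vehicle arrays did not overlap for 3 of the 12, which were Ptges2, the brighter Ptger4 probe set and the brightest Slco2a1 probe set, and this was so for 13.4% of all probe sets. In 2 of the 3 the dDAVP arrays were the higher (8.07% of all probe sets) and in 1 the lower (5.35%). Changes were positive in 6 and negative in 6, with a median of -0.029 against 0.0039 over all probe sets. The median size of the change without its sign was 0.151 log2 units among the 12 and 0.0642 over all probe sets. The 12 were also dimmer, with a median level of 4.71 against 6.72, and several read the same gene. Whether this bears on the size of their changes was not tested. The 95% intervals of the 12 ran at the outermost from 0.66-fold to 1.66-fold, so no interval reached a 2-fold change in either direction, which does not show that the levels were alike. They describe array signal, which can understate fold changes of the transcript at dim probe sets such as those of Ednrb. In such bulk RNA, fewer cells that make a transcript and less of it per cell cannot be told apart.

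**Figure D1:**
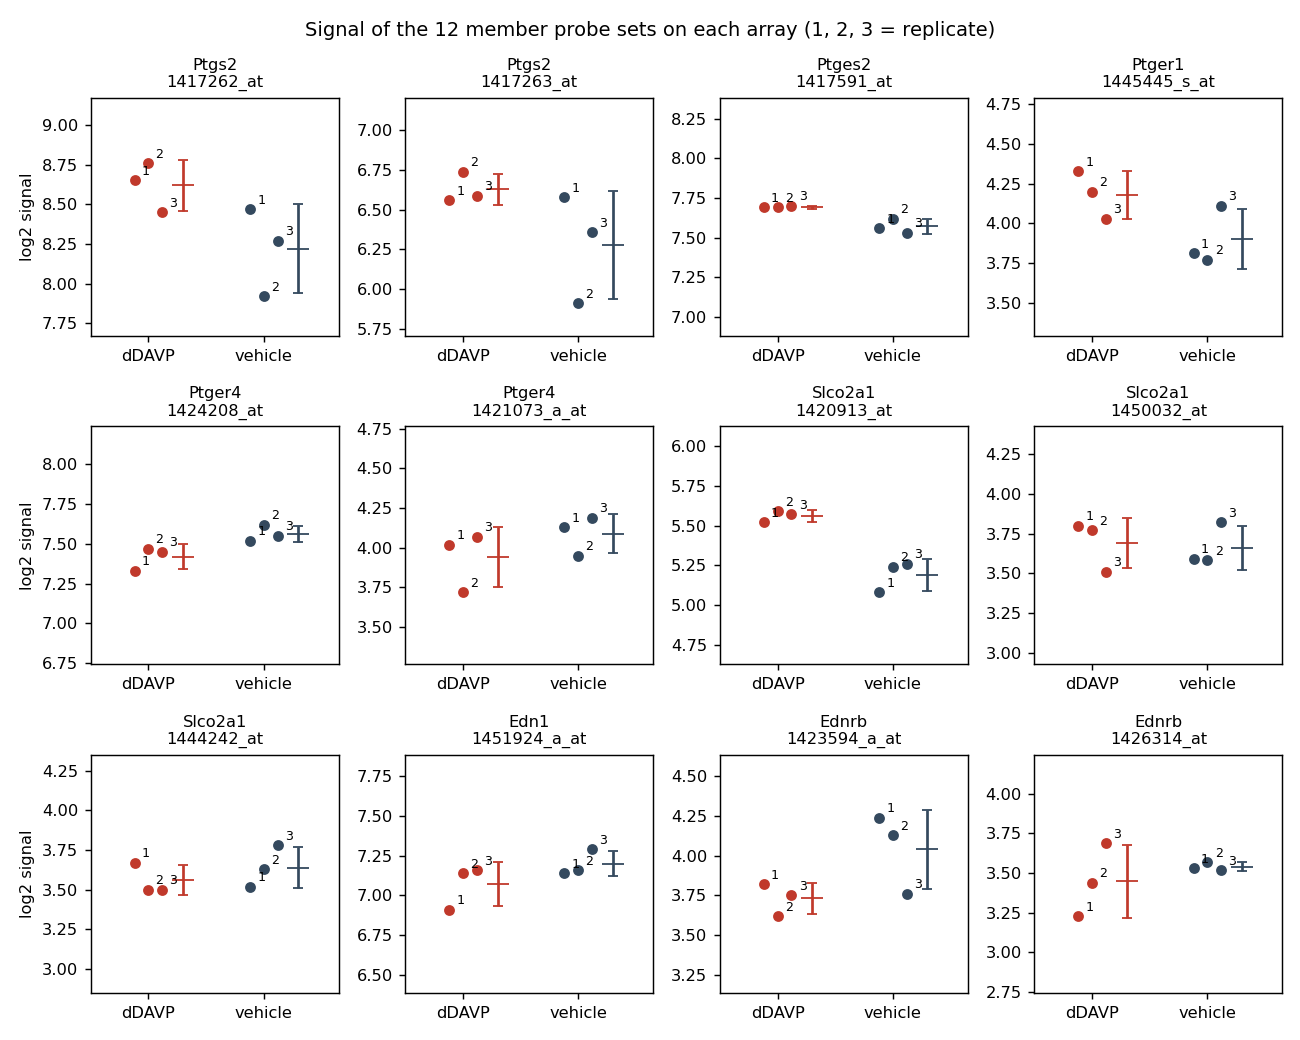
Log2 signal of each of the 12 probe sets on each array, with 3 dDAVP arrays at the left and 3 vehicle arrays at the right of each panel, the replicate number beside each point, and the mean with its SD (n = 3) as a bar. All panels span 1.5 log2 units; the groups are apart for Ptges2, Ptger4 1424208_at and Slco2a1 1420913_at, and vehicle replicate 2 is the lowest array for both Ptgs2 probe sets.

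The sequences around the start sites of 3 of these genes are shown because these genes had the largest positive changes (Ptgs2 and Slco2a1) and the most negative one (Ednrb), and because cAMP, which dDAVP raises, acts on many promoters through the cAMP response element. Each runs from 250 bases before to 50 bases after the RefSeq start in build GRCm38.p6, 5′ to 3′ on the gene's strand. Capitals mark the core of that element (TGACG, or CGTCA on the opposite strand) in Ptgs2 and Ednrb and the TATA box letters TATAAA in Slco2a1.
Ptgs2, chr1:150099781-150100080, plus strand: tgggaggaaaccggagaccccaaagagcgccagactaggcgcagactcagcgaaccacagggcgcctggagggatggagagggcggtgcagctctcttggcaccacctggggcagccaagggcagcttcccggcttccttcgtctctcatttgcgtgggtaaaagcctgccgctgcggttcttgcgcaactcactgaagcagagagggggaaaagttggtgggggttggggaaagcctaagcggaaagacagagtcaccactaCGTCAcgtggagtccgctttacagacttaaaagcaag
Slco2a1, chr9:103008237-103008536, plus strand: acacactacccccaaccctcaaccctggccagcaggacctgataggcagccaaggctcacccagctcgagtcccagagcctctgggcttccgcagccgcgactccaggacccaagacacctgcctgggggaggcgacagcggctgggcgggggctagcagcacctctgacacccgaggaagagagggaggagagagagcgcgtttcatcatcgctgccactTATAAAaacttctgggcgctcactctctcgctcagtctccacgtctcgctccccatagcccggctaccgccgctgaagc
Ednrb, chr14:103843652-103843951, minus strand: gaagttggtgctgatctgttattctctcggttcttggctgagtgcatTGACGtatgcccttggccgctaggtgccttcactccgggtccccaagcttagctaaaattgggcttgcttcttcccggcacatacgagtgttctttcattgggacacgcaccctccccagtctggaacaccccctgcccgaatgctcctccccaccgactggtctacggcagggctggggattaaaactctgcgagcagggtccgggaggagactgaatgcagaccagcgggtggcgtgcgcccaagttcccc
The full palindrome TGACGTCA was searched for in the same windows and was found in none (0) of the 6 measured genes with a promoter entry, where 1.79% of 32851 promoters hold it. The core on either strand, which is part of that palindrome, was found in 2 of the 6, Ptgs2 and Ednrb, and in 20.8% of all promoters. It begins at base 14 after the RefSeq start of Ptgs2 and at 203 bases before that of Ednrb. Neither gene passed the threshold with dDAVP, and whether the core bears on the signal of either was not tested. Where transcription starts in these cells was not tested. TATAAA or its reverse complement TTTATA is present in 1 of the 6 and in 13.6% of all promoters, and in Slco2a1 it begins 29 bases before the start. These are matches of letters, and whether they are bound was not tested here.

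Synthesis was represented by Ptgs2 and Ptges2. Ptgs2 encodes cyclooxygenase-2, the inducible enzyme that commits arachidonic acid to prostaglandins. Its brighter probe set 1417262_at measured 8.65, 8.76 and 8.45 in dDAVP replicates 1 to 3, against 8.47, 7.92 and 8.27 in vehicle replicates 1 to 3. The groups overlapped by a small margin, because dDAVP replicate 3 lay just below vehicle replicate 1, and vehicle replicate 2 was the lowest of the 6 arrays. The log2 change was 0.40 ± 0.14 (SE), or 1.32-fold with a 95% interval of 1.05 to 1.66 (limma adjusted p = 0.525).

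The dimmer Ptgs2 probe set, 1417263_at, gave 6.56, 6.74 and 6.59 in dDAVP cells, against 6.58, 5.91 and 6.36 in vehicle cells. Its change was 0.35 ± 0.16 (SE), 1.28-fold with an interval of 0.991 to 1.64 (limma adjusted p = 0.638). The array-to-array pattern in vehicle cells was alike in both probe sets, which read the same samples. Vehicle replicate 2 lay 0.30 below its group mean on the brighter and 0.37 below it on the dimmer probe set, and vehicle replicate 1 lay 0.25 and 0.30 above it. Without vehicle replicate 2 the changes were 0.25 (adjusted p = 0.525) and 0.16 (adjusted p = 0.613), and without vehicle replicate 1 they were 0.53 (adjusted p = 0.497) and 0.50 (adjusted p = 0.529). The size of the Ptgs2 difference thus moved with either vehicle array, and its direction did not.

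Ptges2 encodes a membrane-associated enzyme with prostaglandin E synthase activity. Its 1 probe set, 1417591_at, measured 7.69, 7.69 and 7.70 in dDAVP cells, against 7.56, 7.62 and 7.53 in vehicle cells. Every dDAVP array lay above every vehicle array, but the distance was small, at 0.12 ± 0.057 (SE) or 1.09-fold with an interval of 0.992 to 1.19 (limma adjusted p = 0.667). The SD of the dDAVP arrays was 0.0071.

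Both receptors of prostaglandin E2 among the 10 genes were measured. Ptger4 encodes EP4, which couples to the stimulatory G protein and raises cAMP, as the V2 receptor does. Its brighter probe set 1424208_at gave 7.33, 7.47 and 7.45 in dDAVP cells, against 7.52, 7.62 and 7.55 in vehicle cells. Here all dDAVP arrays lay below all vehicle arrays. The change was -0.15 ± 0.066 (SE), 0.903-fold with an interval of 0.813 to 1.00 (limma adjusted p = 0.636).

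A second Ptger4 probe set, 1421073_a_at, was much dimmer and gave 4.02, 3.72 and 4.07 in dDAVP cells, against 4.13, 3.95 and 4.19 in vehicle cells. Its groups overlapped, with a change of -0.16 ± 0.11 (SE, limma adjusted p = 0.808) that was close in size to that of the brighter probe set. Without dDAVP replicate 2 it was -0.049. When each array was set to its hybridisation controls, the median change of all probe sets became 0.15, and Ptger4 stood at 0.00056 (1424208_at) and -0.0078 (1421073_a_at), both below that median. Under quantile normalization, median centring and poly-A control scaling both probe sets kept negative values.

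Ptger1 encodes EP1, which signals through calcium and is known to inhibit sodium reabsorption in the collecting duct. Its probe set 1445445_s_at gave 4.33, 4.20 and 4.03 in dDAVP cells, against 3.81, 3.77 and 4.11 in vehicle cells. The 2 highest values were both dDAVP arrays, while vehicle replicate 3 exceeded dDAVP replicate 3. The change was 0.29 ± 0.11 (SE), 1.22-fold with an interval of 1.02 to 1.46 (limma adjusted p = 0.583). Without vehicle replicate 3 it was 0.40 and without dDAVP replicate 1 it was 0.21, with neither passing. The suffix of this probe set marks probes that can match more than 1 transcript. How far its signal is that of Ptger1 was not tested.

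Slco2a1, the prostaglandin transporter, gave the lowest p of the 7 genes. Its brightest probe set 1420913_at measured 5.52, 5.59 and 5.57 in dDAVP cells, against 5.08, 5.24 and 5.26 in vehicle cells. All dDAVP arrays lay above all vehicle arrays, and the distance between the groups exceeded the spread within either. The log2 change was 0.37 ± 0.069 (SE), 1.29-fold with an interval of 1.15 to 1.44 (unadjusted p = 0.000795, limma adjusted p = 0.143). It therefore did not pass over the whole table.

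The other Slco2a1 probe sets did not follow it. Probe set 1450032_at gave 3.80, 3.77 and 3.51 in dDAVP cells, against 3.59, 3.58 and 3.82 in vehicle cells, a change of 0.029 ± 0.10 (SE). Probe set 1444242_at gave 3.67, 3.50 and 3.50 in dDAVP cells, against 3.52, 3.63 and 3.78 in vehicle cells, a change of -0.086 ± 0.086 (SE). Both were dimmer than 1420913_at by 1.70 and 1.77 log2 units and lay just above the olfactory receptor range, and the groups overlapped in each. Averaged over its 3 probe sets, Slco2a1 had a change of 0.10 ± 0.071 (SE, limma adjusted p = 0.729), so the difference rested on 1 probe set.

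**Figure D2:**
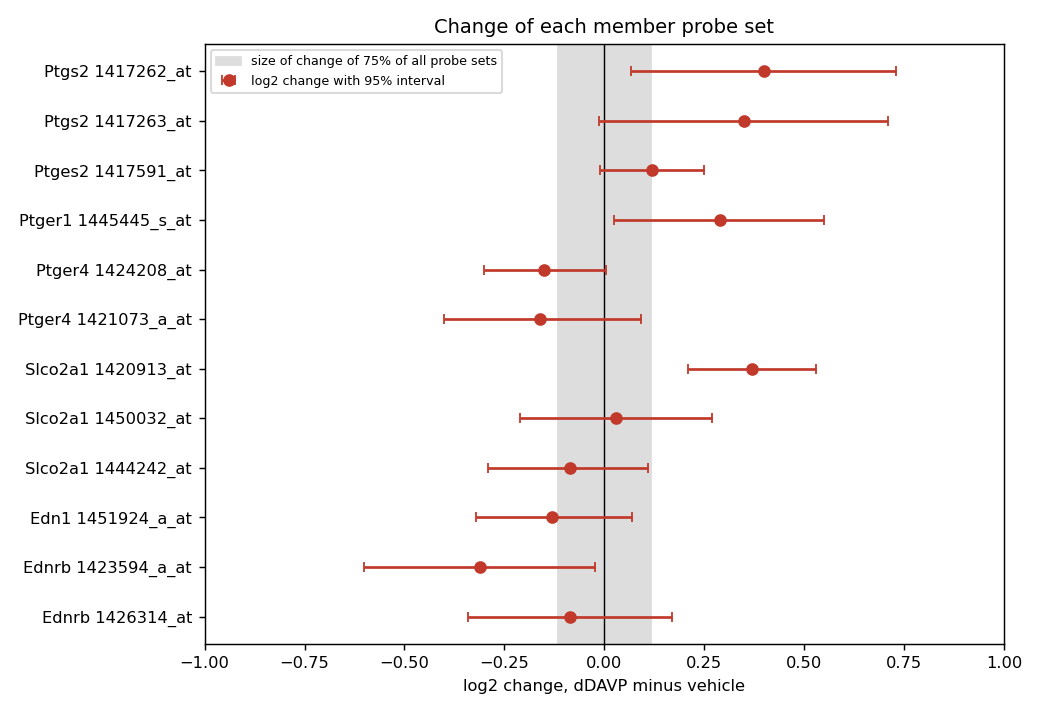
Log2 change, dDAVP minus vehicle, of each of the 12 probe sets (points) with its 95% interval from limma; the grey band spans 0.117 log2 units either side of 0, within which 75% of all 28225 probe sets lie. The intervals of Slco2a1 1420913_at, Ptgs2 1417262_at, Ptger1 and Ednrb 1423594_a_at do not include 0, yet no adjusted p was below 0.143.

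Edn1 encodes the precursor of endothelin-1. Its probe set 1451924_a_at gave 6.91, 7.14 and 7.16 in dDAVP cells, against 7.14, 7.16 and 7.29 in vehicle cells. The groups overlapped, and dDAVP replicate 1 was the lowest array. The change was -0.13 ± 0.085 (SE), 0.916-fold with an interval of 0.799 to 1.05 (limma adjusted p = 0.798). Without dDAVP replicate 1 it was -0.048 (adjusted p = 0.927), and scaled to the hybridisation controls it was 0.021.

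Ednrb encodes the endothelin B receptor. Its brighter probe set 1423594_a_at gave 3.82, 3.62 and 3.75 in dDAVP cells, against 4.24, 4.13 and 3.76 in vehicle cells. Vehicle replicates 1 and 2 lay above all other arrays, while vehicle replicate 3 lay among the dDAVP arrays. The change of -0.31 ± 0.12 (SE), 0.806-fold with an interval of 0.66 to 0.983, was the most negative of the 12 (limma adjusted p = 0.586).

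The second Ednrb probe set, 1426314_at, gave 3.23, 3.44 and 3.69 in dDAVP cells, against 3.53, 3.57 and 3.52 in vehicle cells. Its change was -0.087 ± 0.11 (SE), and both the highest and the lowest array were dDAVP arrays. Its mean of 3.50 was within the olfactory receptor range and that of the first Ednrb probe set, 3.89, not far above it. At such signals the arrays say little about the receptor transcript in either group.

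**Figure D3:**
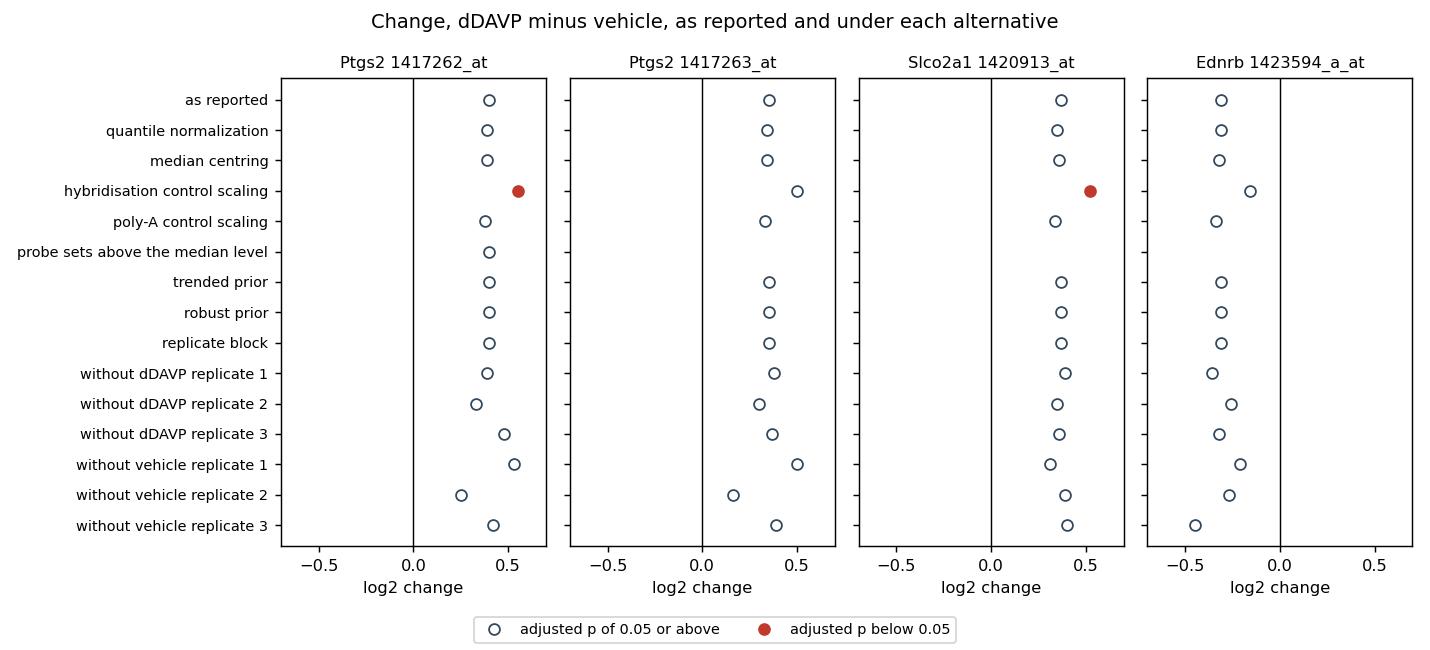
Log2 change, dDAVP minus vehicle, of both Ptgs2 probe sets, the brightest Slco2a1 and the brighter Ednrb probe set, as reported and under each alternative; filled points had a limma adjusted p below 0.05 and a missing point means that the probe set was below the median level. Scaling to the hybridisation controls gave the only filled points, for Ptgs2 1417262_at (0.55) and Slco2a1 1420913_at (0.52), and without vehicle replicate 2 the Ptgs2 changes were 0.25 and 0.16.

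The calls of Ptgs2 and Slco2a1 depended on the scaling of the arrays. The hybridisation controls, transcripts added to the labelled material, averaged 10.46 ± 0.066 in dDAVP arrays and 10.61 ± 0.080 in vehicle arrays (SD, n = 3 each, exact two-sided permutation p = 0.1, the smallest that 3 against 3 arrays allow). Scaled to them, Ptgs2 1417262_at was at 0.55 (limma adjusted p = 0.0494) and Slco2a1 1420913_at at 0.52 (adjusted p = 0.0422). Under that scaling 282 of all probe sets passed, against 61 as deposited. Scaled to the poly-A controls, which are added to the RNA before labelling, the changes were 0.38 (adjusted p = 1.00) and 0.34 (adjusted p = 0.447). Over all alternatives the adjusted p ran from 0.0494 to 1.00 for Ptgs2 1417262_at (14 alternatives) and from 0.0422 to 0.470 for Slco2a1 1420913_at (13 alternatives).

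The wider prostaglandin, eicosanoid and endothelin system was followed with a list of 63 other genes, of which 37 were measured, each by its brightest probe set. None changed in limma (0 higher and 0 lower, against 0.291% of all genes by their brightest probe set). At an unadjusted p below 0.05 there were 3 with positive and 3 with negative changes, 6 of 37, where 7.80% of all genes reached that level (5.51% positive and 2.30% negative). The groups did not overlap in 7 of the 37, against 15.2% of all genes, with dDAVP higher in 4 (10.1% of all genes) and lower in 3 (5.13%). The median change was 0.017 against 0.012 over all genes. The 6 genes with the lowest p were spread over release, synthesis, transport and breakdown.

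Pla2g4a encodes the cytosolic phospholipase A2 that frees arachidonic acid from membranes, the step before Ptgs2. It gave 8.01, 7.97 and 7.93 in dDAVP cells, against 7.76, 7.41 and 7.78 in vehicle cells. The groups did not overlap, and vehicle replicate 2 was again the lowest array, as for Ptgs2. The change was 0.32 ± 0.10 (SE, limma adjusted p = 0.461), and without vehicle replicate 2 it was 0.20 (adjusted p = 0.407). The other 11 measured genes of arachidonate release, all phospholipases or related acyl hydrolases, had changes between -0.38 (Pla2g12b) and 0.075 (Plaat3), and none of these passed.

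Among the synthases, Ptgds, which makes prostaglandin D2 and carries lipophilic molecules, averaged 7.11 ± 0.069 in dDAVP cells and 7.38 ± 0.039 in vehicle cells (SD, n = 3 each). All dDAVP arrays lay below all vehicle arrays, with a change of -0.27 ± 0.062 (SE, limma adjusted p = 0.259). Of the transporters, Abcc4, which exports prostaglandins and cyclic nucleotides, had 9.45 ± 0.015 in dDAVP cells and 9.30 ± 0.044 in vehicle cells, a change of 0.14 ± 0.057 (SE, limma adjusted p = 0.585). Slco3a1, an organic anion transporter related to Slco2a1 that also takes prostaglandins, had 7.27 ± 0.063 in dDAVP cells and 7.49 ± 0.054 in vehicle cells, a change of -0.22 ± 0.063 (SE, limma adjusted p = 0.404). The prostaglandin transport genes thus included positive and negative values, neither past the threshold.

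Alox5ap, the protein that presents arachidonic acid to 5-lipoxygenase for leukotriene synthesis, averaged 4.14 ± 0.16 in dDAVP cells and 3.70 ± 0.20 in vehicle cells (SD, n = 3 each). Its change of 0.44 ± 0.12 (SE) was the largest positive one of the list (limma adjusted p = 0.348), at a dim signal. Mme encodes neprilysin, a membrane peptidase that cleaves endothelin-1 among other peptides. It averaged 7.79 ± 0.015 in dDAVP cells and 8.10 ± 0.15 in vehicle cells, a change of -0.31 ± 0.083 (SE, limma adjusted p = 0.356). Scaled to the hybridisation controls, Alox5ap (0.59, adjusted p = 0.0437) and Pla2g4a (0.47, adjusted p = 0.0447) passed, and Ptgds (-0.12), Slco3a1 (-0.069) and Mme (-0.16) did not. Over all alternatives the adjusted p ran from 0.0437 to 0.869 for Alox5ap and from 0.0447 to 1.00 for Pla2g4a.

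The other prostanoid receptors and related proteins on the list that were measured, Ptger3, Ptgdr, Ptgir and Ptgfrn, had changes between -0.091 and 0.017. Of these, the EP3 receptor gene Ptger3 averaged 2.84 ± 0.14 in dDAVP cells and 2.82 ± 0.19 in vehicle cells (SD, n = 3 each), within the range of the olfactory receptor probe sets. EP3 lowers cAMP and is the receptor through which prostaglandin E2 is known to oppose vasopressin in the collecting duct.

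**Figure D4:**
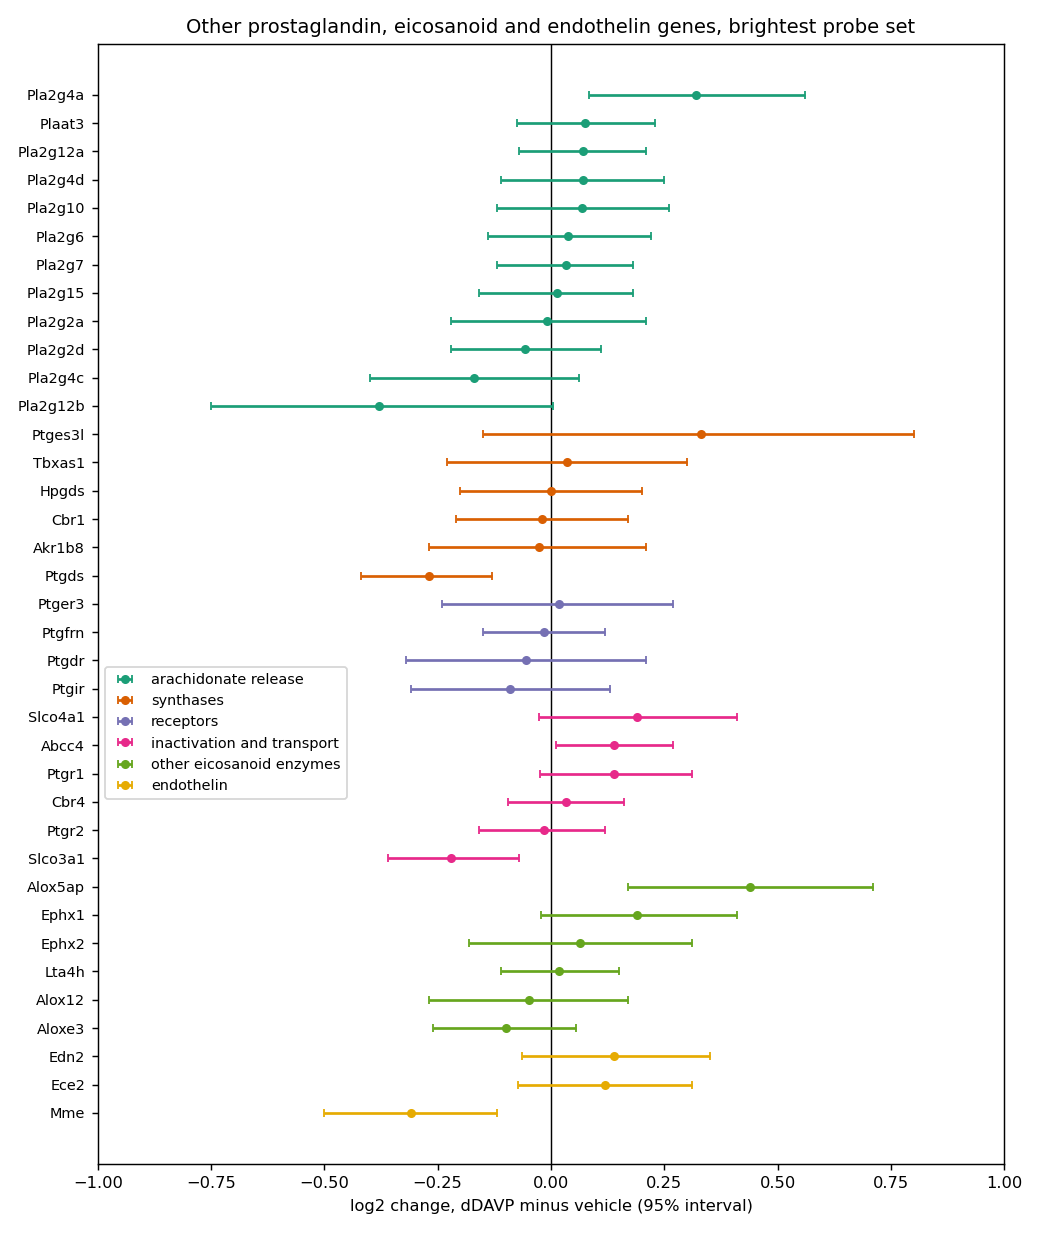
Log2 change, dDAVP minus vehicle, with its 95% interval from limma for the 37 measured genes of the wider list, coloured by role and sorted within each role. Most intervals include 0; Pla2g4a, Alox5ap and Abcc4 lie to the right of it and Ptgds, Slco3a1 and Mme to the left, and none passed after adjustment.

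Likeness to the brightest Slco2a1 probe set was measured over the 6 arrays as the root mean square difference between profiles, each centred on its own mean. The 5 genes nearest to it were the threonine aldolase Tha1 (0.022 log2 units), the hydrolase-family gene Abhd14b (0.028), the transcription factor Stat3 (0.030), the vasopressin-induced gene Avpi1 (0.031) and Crybg1, a protein with crystallin-type domains (0.032). Their changes lay between 0.36 and 0.42 with the groups apart, which follows from choosing them by this profile. As deposited, none of the 5 passed, with limma adjusted p between 0.0768 for Avpi1 and 0.193 for Tha1. Avpi1 (adjusted p = 0.00655) and Abhd14b (0.00955) passed with a trended prior, and also with the dimmer probe sets filtered out at the median level (0.0153 and 0.0208). All 5 passed when scaled to the hybridisation controls (adjusted p 0.0244 to 0.0494), as Slco2a1 1420913_at did (0.0422). Having been chosen for its profile, they are not independent of it. Under that scaling 282 of 28225 probe sets passed, with the trended prior 146, and with the filter 95 of 14112. For Stat3 these values are those of the probe set 1459961_a_at, while the 3 others had changes between -0.026 and 0.16.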

How the data were processed

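For 3 dDAVP and 3 vehicle samples, the authors deposited a table with 1 log2 signal for each probe set on each array. The submitters' processing notes list Affymetrix Expression Console 1.1, RMA and MAS5 without their roles, and the method behind these values is not stated there. Such summaries over probes can understate fold changes at low signal. The 28287 probe sets included 62 controls, which were left out of the test. Of the rest, 23097 carried 1 gene symbol in the platform annotation, 611 several and 4517 none.

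The values were used as deposited, without further normalization. With limma 3.58.1 in R 4.3.3 (lmFit, then eBayes with its default prior; 4 residual degrees of freedom), dDAVP was compared with vehicle over 28225 probe sets, with Benjamini-Hochberg adjustment and a threshold of 0.05. SEs and 95% intervals come from the moderated variances. Each SD is that of 3 arrays. For genes of the wider list and for cell type markers, the probe set with the highest mean stood for the gene. A mean taken per array was tested by exact permutation of the 6 arrays, two-sided. The fit was also run on simulated arrays with changes of known size, and the outcome is not reported here. Precision was held back by having 3 arrays per group, but it also differed between probe sets. The SEs of the 12 probe sets ran from 0.057 to 0.16 at that same number of arrays. As these are array signals, no read depth applies.

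The 10 genes, the wider list and the markers were chosen with earlier results of these data known. All probe sets of the 10 genes are named, and of the wider list those that changed and the 6 with the lowest p. Pla2g12b and Plaat3 were named after their values were seen, as the ends of a range, and so were the Ptger3 values. Alternatives were quantile normalization, median centring, scaling to hybridisation or poly-A controls, a filter on dim probe sets, a trended or robust prior, blocking on the replicate number, omitting 1 array at a time, a stricter threshold of 0.01, and averaging the probe sets of each gene. Promoter sequences are those of RefSeq (GRCm38.p6), which had an entry for 6 of the 7 measured genes. No genome build is named for the arrays, so positions are given only for the promoters. Figures were drawn with matplotlib 3.10.9.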

Additional observations from a re-analysis of the deposited data

How the results depend on the processing

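Of 160 values of the 12 probe sets under the alternatives, 149 kept their direction and stayed short of the threshold, 2 passed it (Ptgs2 and Slco2a1, above) and 9 turned sign. Scaling to the hybridisation controls gave 2 changed probe sets of the 12 and 2 changed genes of the wider list, in place of 0 and 0. It turned Ptger4 1424208_at (0.00056), Slco2a1 1444242_at (0.062), Edn1 (0.021) and Ednrb 1426314_at (0.060) to positive values, all below the 0.15 by which it moved the median of all probe sets. That shift is what this scaling adds. Leaving out 1 array also turned Slco2a1 1450032_at (-0.024 to 0.12) and Ednrb 1426314_at (-0.21 to 0.023). The cause was not tested. No other alternative gave a changed member (0), including averaging the probe sets of each gene. Of all probe sets, 61 changed as deposited, 282 scaled to the hybridisation controls, 95 with the dim filter, 146 with a trended prior, 23 at a threshold of 0.01 and 22 to 46 without 1 array.

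The labels do not say whether same-numbered samples shared more than a number. Their deviations from the group means correlated at 0.196, 0.0463 and -0.0522. Those of samples with different numbers correlated at -0.208 to 0.17, and so few values cannot decide whether samples were paired. With the replicate number as a block, 24 of all probe sets and 0 of the 12 passed, and Slco2a1 1420913_at stayed at 0.37 (adjusted p = 0.267). The dim filter could not give values for the 8 probe sets below the median level. Dim signal limits what can be said of Ednrb, Ptger1 and the dimmer Slco2a1 and Ptger4 probe sets.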
